A study of Ambystoma mexicanum with 6 samples.

Results

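Vertebrate cells meet a shortage of oxygen by building up hypoxia-inducible factor (HIF), a transcription factor whose alpha subunit is marked for destruction whenever oxygen is plentiful. Here 10 genes that either carry out this response or are among its best known targets in mammals were followed in AL1, a line of fibroblasts from the axolotl Ambystoma mexicanum, a salamander. They are HIF1A and EPAS1, which encode the alpha subunits HIF-1α and HIF-2α, EGLN1 and EGLN3, which encode the oxygen-sensing prolyl hydroxylases PHD2 and PHD3, and the target genes BNIP3, NDRG1, VEGFA, ANGPTL4, STC2 and LEP. The genes were found in the deposited count table by symbol, and where a symbol stood on several gene models, the 1 with the highest count, averaged over the 6 libraries, was taken. All 10 symbols were present, on 11 of the table's 99126 gene models. The choice mattered for NDRG1 alone, whose models had mean counts of 480.0 and 36.5 over the 6 libraries. That mean was used to choose the model and is given as a description.

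The treated group is 3 samples of wild-type AL1 cells given 10 µM etoposide, a topoisomerase poison that causes DNA breaks, together with 1 µM nutlin-3a, an inhibitor of the p53 regulator MDM2, for 24 h, and then 1 µM nutlin-3a without etoposide for 11 days. The labels call these cells senescent, meaning that they have left the cell cycle for good. The control group is 3 samples of wild-type AL1 cells given the solvent DMSO, split during the 12 days so that they did not become confluent, and both groups were harvested at day 14. The comparison asks how transcripts differ between these senescent and dividing cells, and drug exposure, arrest and the difference in passaging cannot be told apart in it. The labels mention no change in oxygen supply and do not say whether the samples of a group were separate cultures, so p-values measure the spread between these samples, which may be technical.

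In cells with enough oxygen, the prolyl hydroxylases attach hydroxyl groups to HIF-α proteins, the VHL ubiquitin ligase recognises the modified protein, and the proteasome removes it. When oxygen falls, HIF-α persists, pairs with ARNT and switches on genes for glycolysis, blood vessel growth, mitochondrial clearance and iron handling. Much of the control therefore acts on HIF-α protein, which transcript counts do not measure. EGLN1 and EGLN3 are themselves HIF targets in mammals, which makes the sensors part of a feedback loop.

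Libraries held 28604727 to 46686876 counts, and the first principal component, with 76.1% of the variance, separated the groups. Treated replicates 1 and 2 lay farthest apart of any pair of a group, with a chi-square statistic of 68.8 per degree of freedom. Of 17424 gene models tested by edgeR's quasi-likelihood test, 52.3% changed at an adjusted p below 0.05, 25.5% upward and 26.8% downward. With library size as the only scaling the median log2 fold change of all models moved from −0.03 to −0.40, and 2314 models were higher and 7029 lower, in place of 4443 and 4665. Fold changes below are relative to the trimmed-mean (TMM) scaling. The fibroblast label was checked on 14 markers found in the table: VIM, the vimentin gene, stood at 6827 ± 188 and 8285 ± 800 CPM (counts scaled to the TMM-adjusted library size; mean ± SD, n = 3 per group) and COL1A1 at 241 ± 27.3 and 157 ± 41.8 CPM, whereas DCN, THY1, PRRX1 and COL5A1 stayed below 0.6 CPM in each library. Summed, the fibroblast markers ran from 7245 to 7498 CPM in controls and from 7699 to 9420 CPM in treated libraries, and most of each sum was VIM. Of 10 fibroblast markers tested, 3 fell (30%, beside 26.8% of all models) and 1 rose (10%, beside 25.5%). On the log2 scale FN1 fell by 1.02 (edgeR adjusted p = 0.000117), COL1A2 by 0.81 (edgeR adjusted p = 0.000797) and COL1A1 by 0.62 (edgeR adjusted p = 0.00749). The fibroblast markers that did not pass were COL6A1 (0.60), VIM (0.28), COL3A1 (0.18), PDGFRB (0.17), PDGFRA (0.04) and TWIST1 (−0.03). The median log2 fold change of the fibroblast markers tested was 0.10. Among those with a mean CPM of at least 1, 3 fell and 0 rose. Of 4 epithelial markers found, the keratin gene KRT18 was high, at 1360 ± 62.4 and 1033 ± 106 CPM, whereas EPCAM had 0 counts in all 6 libraries and CDH1 reached at most 0.155 CPM.

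Most of the hypoxia response genes were lower in treated cells. Of the 10, all of which had enough counts to be tested, 7 fell (against 26.8% of all models), 1 rose (against 25.5%) and 2 did not pass the test. The genes that fell were HIF1A, EGLN1, EGLN3, NDRG1, ANGPTL4, STC2 and LEP. BNIP3, the gene of a mitochondrial outer membrane protein that marks mitochondria for autophagy, rose, and EPAS1 and VEGFA did not pass. The median log2 fold change of the 10 was −0.72, beside −0.03 over all models tested, and −1.09 beside −0.40 with library size only. In 8 of the 10 the ranges of the treated and the DMSO libraries did not overlap, beside 60.2% of all models. STC2 and ANGPTL4, both among the 7 that fell, were listed with their values already known. The whole list was drawn up with earlier results of these data known. Its counts and its median are therefore a description and not independent evidence of a direction. The adjusted p-values given below for each of the 10 genes, and for genes of the further lists, carry the same limit. Some markers of other cell types moved alongside. The macrophage marker CD68 rose from 1.81, 1.52 and 2.28 CPM to 7.34, 4.96 and 6.39 CPM (1.74 on the log2 scale, edgeR adjusted p = 2.01e-05). MARCO, the other of the 2 macrophage markers tested, did not pass (0.04, edgeR adjusted p = 0.942). PTPRC, which defines white blood cells, had 0 counts in all 6 libraries and CSF1R stayed below 0.1 CPM. The 5 macrophage markers summed to 1.94 to 2.696 CPM in controls and 5.27 to 7.99 CPM in treated libraries, most of it CD68. The epithelial keratin gene KRT5 rose from 0.901 ± 0.338 to 3.34 ± 0.785 CPM (1.87, edgeR adjusted p = 0.000141) and KRT18 fell (−0.40, edgeR adjusted p = 0.0237), a KRT18 call lost without DMSO replicate 2 (−0.37), DMSO replicate 3 (−0.40) or treated replicate 3 (−0.39) and with upper-quartile scaling (−0.31). The epithelial markers summed to 1294 to 1417 CPM in controls and 933 to 1147 CPM in treated libraries. The part of these markers in the values of the 10 genes was not tested. In RNA from whole cultures, fewer cells that express a gene and less of its RNA per cell cannot be told apart.

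**Figure D1:**
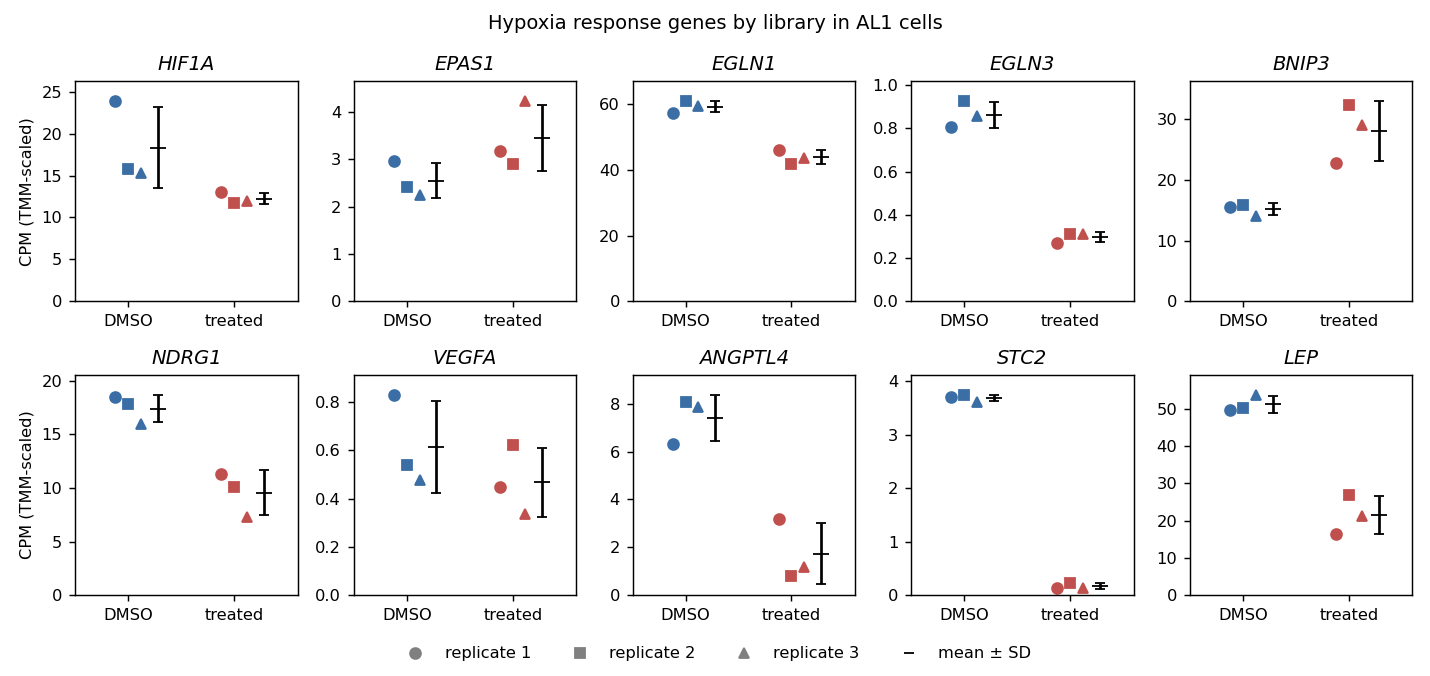
Each panel shows 1 gene, with TMM-scaled CPM on an axis that starts at 0 and the 3 DMSO and 3 treated libraries as separate points; bars are mean ± SD. STC2 drops from about 3.68 to 0.165 CPM, BNIP3 is the gene whose treated libraries all lie higher, and EPAS1 and VEGFA overlap between groups.

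The identity of each model was looked at through its neighbours, because the description of 1 row did not match its symbol. Each of the 10 chosen models had at least 4 neighbouring gene names in common with the gene of the same symbol in RefSeq's annotation of another axolotl assembly, UKY_AmexF1_1, counting 5 named genes to either side. The check bears most on LEP, the leptin gene, since the table describes this row with the name of a plant DNA-binding protein. Its model on chromosome 12q (641985822 to 642012527, minus strand, AmexG_v6_DD) lies in both assemblies near IRF5, TNPO3, PRRT4, RBM28 and LRRC4. The lower NDRG1 model, on chromosome 6q (433263782 to 433265599, minus strand), is a single exon block of 1818 bases with 0 shared neighbours, whereas the chosen model on chromosome 5q (1076721183 to 1077153266, minus strand) has 18 exon blocks and lies near TG, SLA and CCN4. Reads could be split between these copies, so NDRG1 values are uncertain to that extent.

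Levels were compared between genes as CPM per kb of exon length. In DMSO cells LEP (16.6 ± 0.722) and EGLN1 (15.8 ± 0.460) were the most abundant of the 10, and their libraries overlapped. NDRG1 (4.60 ± 0.336), HIF1A (4.51 ± 1.19) and BNIP3 (4.50 ± 0.287) followed with overlapping values. ANGPTL4 stood at 1.94 ± 0.251, clear of the genes on either side. EPAS1 (0.460 ± 0.0678) and STC2 (0.408 ± 0.00681) overlapped, and EGLN3 (0.151 ± 0.0106) and VEGFA (0.0611 ± 0.0188) were lowest. Among all models tested EGLN1 was at percentile 83.3 of level per length over the 6 libraries and LEP at 81.8, while EGLN3 was at 7.25 and VEGFA at 2.79. The order changed in treated cells: EGLN1 led alone at 11.6 ± 0.571 CPM per kb, and BNIP3 (8.33 ± 1.46) and LEP (6.98 ± 1.67) overlapped behind it. HIF1A (3.02 ± 0.164) overlapped with NDRG1 (2.53 ± 0.554), and EPAS1 (0.621 ± 0.126) with ANGPTL4 (0.452 ± 0.333). EGLN3 (0.0517 ± 0.00416) and VEGFA (0.0465 ± 0.0143) overlapped as well, and STC2 came last at 0.0183 ± 0.00647 CPM per kb.

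**Figure D2:**
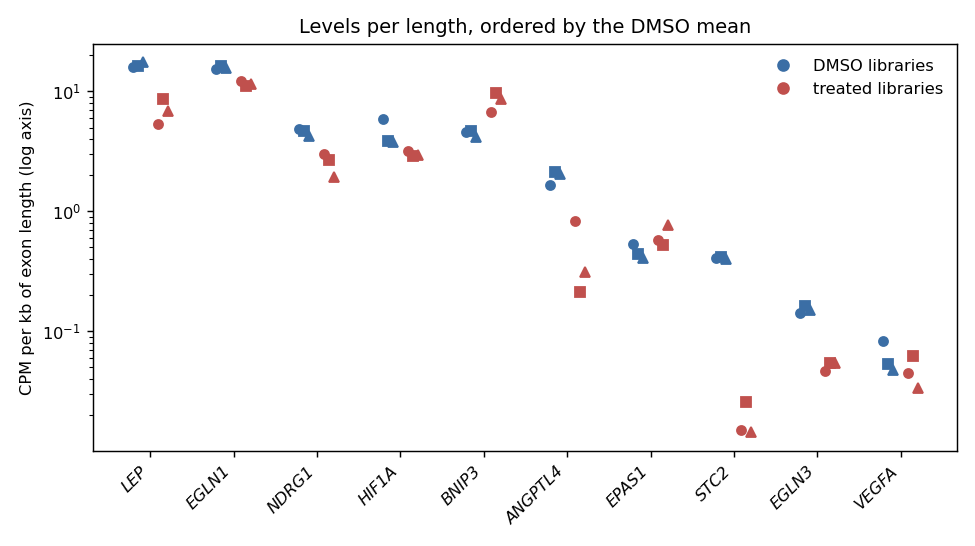
Levels per exon length of the 10 genes, in CPM per kb on a log axis, ordered by the DMSO mean, with 1 point per library. LEP and EGLN1 lead in DMSO cells at 16.6 and 15.8 CPM per kb; in treated cells BNIP3 (8.33) overlaps LEP (6.98), and STC2 (0.0183) lies below VEGFA (0.0465).

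The HIF-α subunit genes were considered first. HIF1A, whose product is the broadly expressed HIF-1α, lies on chromosome 14q (243536570 to 244198391, minus strand). It measured 23.9, 15.8 and 15.3 CPM in DMSO libraries and 13.0, 11.8 and 12.0 CPM in treated libraries. DMSO replicate 1 stood well above the other controls, yet all 3 treated libraries lay below every control. HIF1A fell, with a log2 fold change of −0.58 (standard error 0.17, adjusted p = 0.0113 by edgeR). That call rests on DMSO replicate 1: without it the log2 fold change was −0.35 (edgeR adjusted p = 0.0661). Under library-size scaling it was −0.95.

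EPAS1, whose product HIF-2α is best known from endothelial cells and from the control of erythropoietin, lies on chromosome 4q (799069778 to 799483705, minus strand). Its libraries measured 2.97, 2.42 and 2.25 CPM in controls and 3.18, 2.91 and 4.23 CPM in treated cells. The groups overlapped, since treated replicate 2 lay under DMSO replicate 1. EPAS1 had a log2 fold change of 0.43 (95% interval −0.03 to 0.90, edgeR adjusted p = 0.107). With library size only the value was 0.07. EPAS1 passed the test once the trend of fold change with transcript length was removed, a setting chosen after values were seen (0.59, edgeR adjusted p = 0.0215).

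HIF1A and EPAS1 products share the partner ARNT, and their counts were also set against each other within each library, which needs no scaling between libraries. EPAS1 counts equalled 12.4%, 15.4% and 14.7% of HIF1A counts in DMSO libraries and 24.4%, 24.8% and 35.3% in treated libraries. The groups did not overlap, and the ratio was 1.96-fold higher in treated cells, a log2 difference of 0.97 (exact permutation test, two-sided, p = 0.1). With 3 libraries against 3, 0.1 is the smallest p this test can give. The ratio restates the changes of both genes and was chosen with earlier results of these data known, so it is a description. Per exon length, EPAS1 remained below HIF1A in every library, at a ratio of 0.0913 to 0.113 in DMSO and 0.179 to 0.259 in treated cells.

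Both oxygen sensor genes fell. EGLN1, the main hydroxylase of HIF-1α in most mammalian cells, lies on chromosome 4p (1173615553 to 1174088920, plus strand). It measured 57.4, 60.9 and 59.4 CPM in controls and 46.0, 41.7 and 43.6 CPM in treated libraries. Values were tight within each group and did not overlap between them, and EGLN1 fell 1.35-fold, which is −0.43 on the log2 scale (standard error 0.11, adjusted p = 0.00371 by edgeR). Under library-size scaling the value was −0.80. EGLN3, a hydroxylase that hypoxia induces strongly in many mammalian cells, lies on chromosome 14q (409447052 to 409480678, plus strand). Its libraries held 32, 31 and 27 counts in DMSO and 12, 8 and 12 counts in treated cells, or 0.805, 0.927 and 0.857 CPM against 0.269, 0.310 and 0.309 CPM. Every treated library lay well below every control, and the log2 fold change was −1.54 (standard error 0.36, adjusted p = 0.00260 by edgeR).

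EGLN3 counts equalled 1.40%, 1.52% and 1.44% of EGLN1 counts in DMSO libraries and 0.584%, 0.743% and 0.709% in treated libraries. The ratio was thus 2.16-fold lower in treated cells, with no overlap, a log2 difference of −1.11 (exact permutation test, two-sided, p = 0.1, the smallest possible here). It too restates the changes of both genes, was chosen with earlier results known, and is a description.

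**Figure D3:**
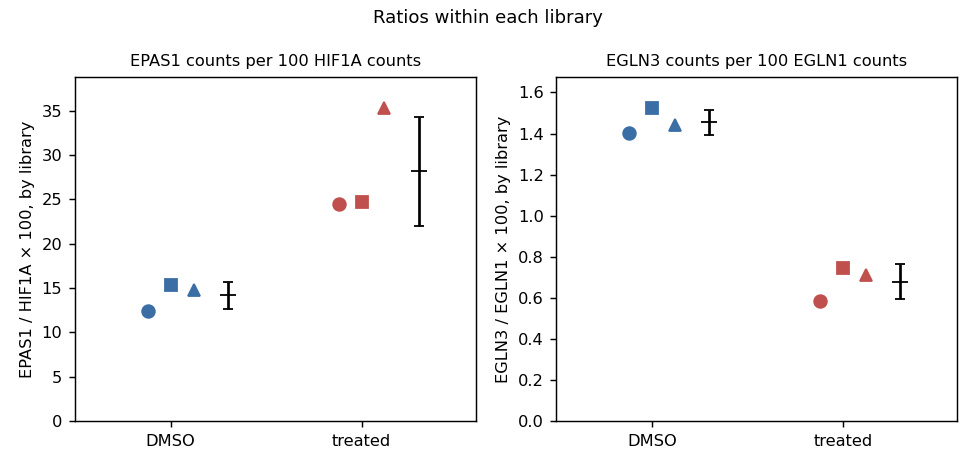
Count ratios within each library, in percent, for EPAS1 over HIF1A (left) and EGLN3 over EGLN1 (right), with 1 point per library and mean ± SD. The first ratio runs from 12.4% to 15.4% in DMSO and from 24.4% to 35.3% in treated libraries; the second runs from 1.40% to 1.52% and from 0.584% to 0.743%.

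Among target genes that act inside the cell, BNIP3 and NDRG1 moved in opposite directions. BNIP3, on chromosome 8q (499164062 to 499548797, plus strand), measured 15.5, 15.9 and 14.1 CPM in controls and 22.7, 32.4 and 29.1 CPM in treated libraries. All treated libraries were higher, with treated replicate 1 the closest to the controls. BNIP3 rose 1.85-fold, which is 0.89 on the log2 scale (standard error 0.14, adjusted p = 0.000185 by edgeR), and it still passed with library size only (0.50, edgeR adjusted p = 0.0129). Its paralog BNIP3L, which encodes the related mitophagy receptor NIX, went from 18.8, 18.9 and 18.3 CPM to 68.8, 91.8 and 79.2 CPM, which is 2.10 on the log2 scale (standard error 0.13, adjusted p = 3.56e-08 by edgeR). In both receptor genes treated replicate 1 was the lowest and treated replicate 2 the highest of the treated libraries. LEP, RBX1 and ELOC had the same order, so it is not particular to BNIP3 and BNIP3L. Treated replicates 1 and 2 were also the pair farthest apart over all models.

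NDRG1 encodes a cytoplasmic protein induced by hypoxia, iron loss and differentiation in mammalian cells. Its chosen model measured 18.4, 17.8 and 16.0 CPM in controls and 11.3, 10.1 and 7.24 CPM in treated libraries. The groups did not overlap, and the log2 fold change was −0.86 (standard error 0.17, adjusted p = 0.000694 by edgeR). The single-exon model measured 1.23, 1.58 and 1.49 CPM against 0.806, 0.737 and 0.387 CPM, which is −1.16 on the log2 scale (standard error 0.32, adjusted p = 0.00869 by edgeR). With the counts of both models added, NDRG1 had a log2 fold change of −0.88.

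The secreted targets included the largest falls of the 10. STC2 encodes stanniocalcin 2, a secreted glycoprotein that hypoxia and endoplasmic reticulum stress induce in mammalian cells, and lies on chromosome 3q (86337320 to 86419492, plus strand). Its libraries held 147, 125 and 114 counts in DMSO and 6, 6 and 5 counts in treated cells. In CPM these were 3.70, 3.74 and 3.62 against 0.134, 0.233 and 0.129, so the controls were nearly level and the treated libraries lay close to the floor of 3 counts. STC2 fell by 4.52 on the log2 scale, or 23.0-fold (95% interval of the log2 fold change −5.17 to −3.87, edgeR adjusted p = 6.67e-08). It ranked 10 from the lowest among the log2 fold changes of 17424 models. The STC2 value was known when the list was drawn up. Its fall, rank, interval and adjusted p are therefore given as a description and not as a test of this gene. Its paralog STC1 had 0 counts in all 6 libraries.

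ANGPTL4, which encodes a secreted inhibitor of lipoprotein lipase, lies on chromosome 1p (603308540 to 603337754, minus strand). It measured 6.32, 8.07 and 7.87 CPM in controls and 3.18, 0.814 and 1.19 CPM in treated libraries. Treated replicate 1 kept a level well above the other treated libraries but below every control. ANGPTL4 fell 4.11-fold, which is −2.04 on the log2 scale (standard error 0.35, adjusted p = 0.000263 by edgeR), and without treated replicate 1 the log2 fold change was −2.84. The ANGPTL4 value was also known when the list was drawn up. This fall and its adjusted p are therefore given as a description and not as a test of this gene. Of its relatives, ANGPTL2 rose from 96.1 ± 9.16 to 257 ± 45.8 CPM (1.42 on the log2 scale, adjusted p = 3.11e-06 by edgeR) and ANGPTL6 from 6.95 ± 0.447 to 13.8 ± 2.26 CPM (0.99, edgeR adjusted p = 0.000161), while ANGPTL1 had 0 counts in every library.

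LEP encodes leptin, which in mammals is mainly a hormone of fat cells and is induced by hypoxia. The axolotl model measured 49.6, 50.4 and 53.8 CPM in controls and 16.5, 26.8 and 21.2 CPM in treated libraries. Each treated library lay below each control by a wide margin, with treated replicate 1 lowest. LEP fell 2.39-fold, which is −1.26 on the log2 scale (standard error 0.15, adjusted p = 1.74e-05 by edgeR). Like the rest of the list, LEP was chosen with earlier results of these data known, so this adjusted p is a description. Of the 3 fat cell markers found in the table, ADIPOQ had 0 counts in every library but treated replicate 1, which held 5 (0.112 CPM), CIDEC stayed below 0.35 CPM, and PPARG stood at 1.35 ± 0.334 CPM in controls and 1.39 ± 0.185 CPM after treatment. Summed, these markers ran from 1.06 to 1.82 CPM in controls and reached at most 1.75 CPM in treated libraries.

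VEGFA, the central growth factor of blood vessel formation, was the least abundant of the 10 per length in DMSO cells. Its model on chromosome 4q (1130818104 to 1130909796, minus strand) held 33, 18 and 15 counts in DMSO and 20, 16 and 13 counts in treated libraries, or 0.831, 0.538 and 0.476 CPM against 0.448, 0.621 and 0.335 CPM. The groups overlapped, and the log2 fold change was −0.44 with a 95% interval of −1.29 to 0.41 (edgeR adjusted p = 0.375). A fall of the size seen in HIF1A or EGLN1 lies inside this interval. Without single libraries the VEGFA value ran from −0.65 to −0.15, and with library size only it was −0.81. VEGFD, a lymphatic growth factor of the same family, was more abundant than VEGFA. It rose from 24.6 ± 0.663 to 60.1 ± 3.32 CPM (1.29 on the log2 scale, standard error 0.11, adjusted p = 6.25e-07 by edgeR). The VEGF co-receptor genes NRP2 and NRP1 fell, from 11.7 ± 0.572 to 3.63 ± 1.14 CPM (−1.66, edgeR adjusted p = 1.79e-05) and from 2.89 ± 0.460 to 1.32 ± 0.527 CPM (−1.11, edgeR adjusted p = 0.00450). The VEGF receptor genes FLT1 (0.08, edgeR adjusted p = 0.819) and KDR (0.28, edgeR adjusted p = 0.585) were tested and did not pass. Of the other ligand genes, VEGFC rose (0.77, edgeR adjusted p = 0.00534), a call lost with library size only (0.40). VEGFB did not pass (0.51, edgeR adjusted p = 0.372).

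**Figure D4:**
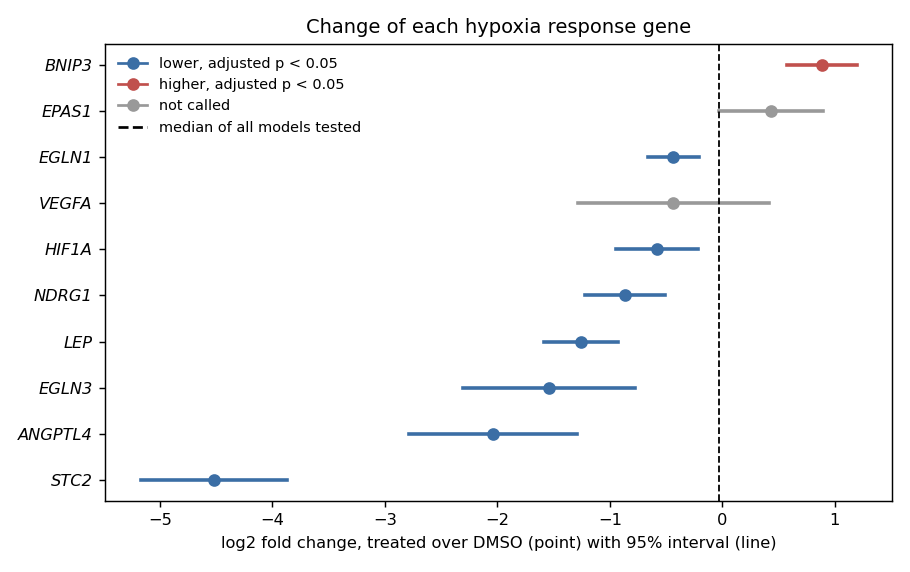
Log2 fold change of each of the 10 genes, treated over DMSO, with 95% intervals; the dashed line is the median of all models tested (−0.03). Intervals of 7 genes lie wholly below 0, that of BNIP3 lies above it, and those of EPAS1 and VEGFA include it; STC2 is lowest at −4.52.

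Fold changes in these data went with transcript length, which touches every comparison above. The median log2 fold change was 0.28 over 2141 models of up to 1 kb, −0.03 over 4911 models of 2 to 4 kb and −0.17 over 3310 models of 4 to 6 kb. Exon lengths of the 10 genes ran from 3084 bases for LEP to 10055 for VEGFA. Among models of 2 to 4 kb 29.7% fell, and among models of 4 to 6 kb 33.5% did. STC2 and VEGFA are longer than 6 kb, and of 4621 such models 28.9% fell, with a median of −0.17. With the length trend removed the same 7 genes fell, with STC2 at −4.38, LEP at −1.18, HIF1A at −0.43 and EGLN1 at −0.30.

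Of 16 listed partners of HIF and of its degradation, 15 were in the table and 13 were tested; 3 rose (23.1%) and 4 fell (30.8%), with a median log2 fold change of −0.16. These shares lie near the 25.5% and 26.8% of all models and are no result about the list. With DMSO replicate 1 left out 2 fell and the median was −0.00; with DMSO replicate 3 left out it was −0.34, and library-size scaling gave −0.53. HIF3A, the gene of the HIF-3α subunit, fell from 22.8 ± 2.39 to 14.7 ± 2.68 CPM (−0.62, edgeR adjusted p = 0.00365). EP300, a coactivator that HIF-α recruits, fell from 8.17 ± 0.0593 to 4.48 ± 1.38 CPM (−0.86, edgeR adjusted p = 0.00323), and CITED2, which competes with HIF-α for that coactivator, rose from 1.97 ± 0.203 to 3.54 ± 0.816 CPM (0.85, edgeR adjusted p = 0.00603). The CITED2 call was lost with library size only (0.50).

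In the VHL ubiquitin ligase, VHL itself fell from 16.6 ± 3.01 to 11.8 ± 1.01 CPM (−0.50, edgeR adjusted p = 0.0149), a call lost without DMSO replicate 1 (−0.37) and with the length trend removed (−0.33). The shared ligase subunits RBX1 and ELOC rose, with log2 fold changes of 1.27 (edgeR adjusted p = 0.000126) and 1.09 (edgeR adjusted p = 0.000256). Their models are short, at 0.718 and 1.67 kb, and treated replicate 2 was highest for both, at 377 CPM of RBX1 and 800 CPM of ELOC. Both stayed among the 3 genes of the list that rose, with the length trend removed and also without treated replicate 2. ELOB had a log2 fold change of 0.21 and CUL2, the scaffold, of 0.07, and neither passed the test. EGLN2, the third hydroxylase gene, fell from 5.43 ± 0.274 to 3.71 ± 1.04 CPM (−0.56, edgeR adjusted p = 0.0422). That call was lost without any 1 of the 3 DMSO replicates or without treated replicate 3 (−0.60 to −0.33), with the length trend removed (−0.40), with DESeq2, and with other scalings by RLE or upper quartile. HIF1AN, the asparaginyl hydroxylase that blocks HIF-α from its coactivator, had −0.29 (edgeR adjusted p = 0.0560), and passed with treated replicate 2 left out (−0.35) or under library-size scaling (−0.67). ARNT, the partner of all HIF-α subunits, measured 3.81 ± 0.589 and 3.50 ± 1.34 CPM (edgeR adjusted p = 0.738). ARNT2 (−0.47) and the EP300 relative CREBBP (−0.16) did not pass either.

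Of 22 glycolysis and pH genes 17 were found by symbol and 14 were tested. Of those tested, 5 rose (35.7%, beside 25.5% of all models) and 1 fell (7.14%, beside 26.8%), with a median of 0.11. SLC2A3, HK1, TPI1, PGK1 and CA9 had no model under these symbols. The model named GAPDH held at most 2 counts in a library and was not tested. ENO1, the enolase gene, rose from 393 ± 11.7 to 888 ± 95.5 CPM (1.18, edgeR adjusted p = 6.42e-06), PGAM1 from 110 ± 6.97 to 226 ± 20.8 CPM (1.04, edgeR adjusted p = 8.71e-06) and ALDOA, the aldolase A gene, from 1741 ± 93.8 to 3394 ± 569 CPM (0.96, edgeR adjusted p = 0.000182). Hexokinase 2, HK2, fell from 54.9 ± 7.83 to 40.5 ± 5.001 CPM (−0.44, edgeR adjusted p = 0.0138), a call lost without DMSO replicate 1 (−0.34) and with the length trend removed (−0.27). Scaled by library size only, 4 genes of this group rose and 5 fell, and the median became −0.26; without DMSO replicate 3 the median was −0.03 and 2 fell, and without DMSO replicate 2 the median was 0.33.

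A further 21 targets were listed as acting inside the cell, although CXCR4, TFRC and VLDLR among them encode cell-surface receptors. Of these 21, 15 were tested. In this list 7 rose (46.7%, beside 25.5% of all models) and 2 fell (13.3%, beside 26.8%), with a median of 0.46. Besides BNIP3L, the rises were led by HMOX1, which encodes haem oxygenase 1, from 892 ± 26.8 to 1453 ± 105 CPM (0.70, edgeR adjusted p = 0.000482), and MXI1, a MYC antagonist, from 66.7 ± 1.98 to 106 ± 3.89 CPM (0.67, edgeR adjusted p = 0.000132). The chemokine receptor model CXCR4.S fell by 1.18 on the log2 scale (edgeR adjusted p = 0.00308). BHLHE41, a transcriptional repressor gene, measured 0.895 ± 0.186 and 0.279 ± 0.305 CPM (−1.52, edgeR adjusted p = 0.0445), a call lost when any library other than treated replicate 1 was left out (−1.65 to −1.06) and with upper-quartile scaling. Scaled by library size only, 2 of this group rose and 3 fell, the MXI1 call was lost (0.30), and the median was 0.07; without DMSO replicate 2 the number that rose was 5 and the median 0.27, and without treated replicate 1 the number that fell was 3.

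Of 16 secreted and matrix targets 12 were tested; 3 rose (25.0%) and 4 fell (33.3%), with a median of −0.35, and these shares too lie near the 25.5% and 26.8% of all models. ADM, which encodes the vasodilator adrenomedullin, fell from 28.3 ± 2.94 to 14.5 ± 2.26 CPM (−0.95, edgeR adjusted p = 9.54e-05). PLOD2, a collagen lysyl hydroxylase gene, fell by 0.76 (edgeR adjusted p = 0.00728) and IGFBP3 by 0.60 on the log2 scale (edgeR adjusted p = 0.00474). LOX, the lysyl oxidase gene, rose from 13.4 ± 0.661 to 22.0 ± 1.94 CPM (0.71, edgeR adjusted p = 0.000380), IGFBP1 from 213 ± 39.6 to 346 ± 31.7 CPM (0.70, edgeR adjusted p = 0.00110) and P4HA1, a collagen prolyl hydroxylase gene, from 11.6 ± 2.42 to 18.3 ± 2.40 CPM (0.65, edgeR adjusted p = 0.00489). With library size only these 3 rises were lost, at 0.35, 0.33 and 0.26, 6 genes fell, and the median was −0.71. EPO, the erythropoietin gene, had at most 1 count in a library.

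Among 19 paralogs and receptors of the 10 genes 12 were tested; 5 rose (41.7%, beside 25.5% of all models) and 3 fell (25.0%, near the 26.8% of all models), with a median of 0.36. Under scaling by library size only, 3 rose, 3 fell and the median was −0.01. NDRG2, a relative of NDRG1, fell from 44.8 ± 3.32 to 34.6 ± 4.77 CPM (−0.37, edgeR adjusted p = 0.0231), a call lost without DMSO replicate 1 (−0.32) or treated replicate 3 (−0.32), with upper-quartile scaling and with the length trend removed (−0.22). NDRG3 rose from 51.5 ± 3.08 to 69.5 ± 4.84 CPM (0.43, edgeR adjusted p = 0.00496), a call lost with library size only (0.07). NDRG4 did not pass (0.10, edgeR adjusted p = 0.734). The endothelial marker VWF rose at a low level, from 0.151 ± 0.0290 to 1.12 ± 0.471 CPM, while CDH5 and TIE1 had 0 counts in all 6 libraries, and summed endothelial markers ran from 0.120 to 0.176 CPM in controls and from 0.582 to 1.75 CPM in treated libraries. Their part in the values of VEGF family genes was not tested.

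**Figure D5:**
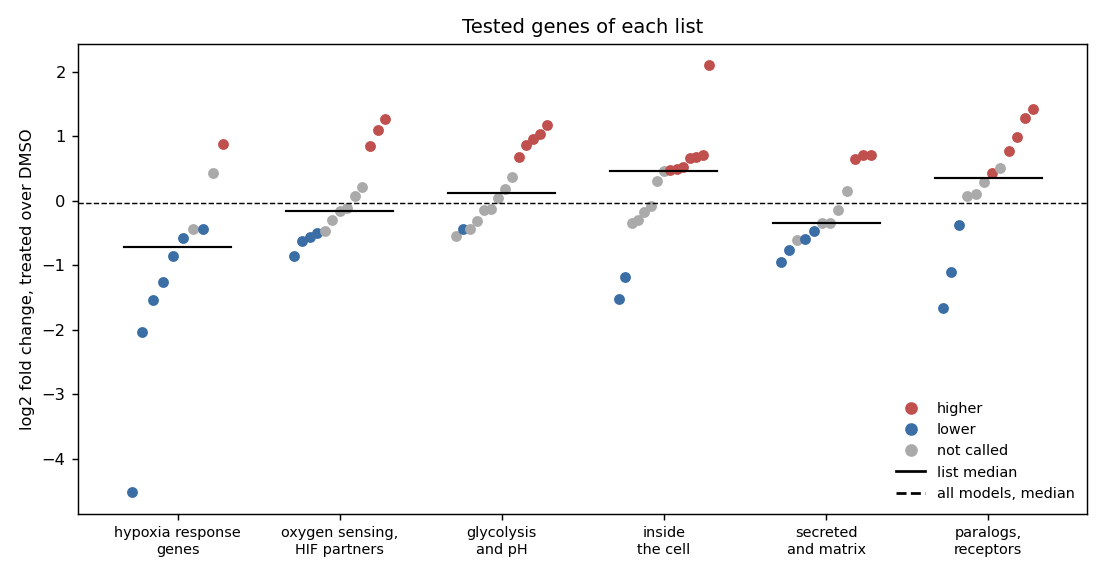
Log2 fold change, treated over DMSO, of every tested gene in the group of 10 and in 5 further groups of the pathway, with list medians as bars and the median of all models as a dashed line. The 10 genes have the lowest median (−0.72) and hold the lowest value, STC2, while further targets listed as inside the cell have the highest median (0.46), led by BNIP3L at 2.10. The 10 were listed with values of STC2 and ANGPTL4 known, and all lists with earlier results of these data known. This order of the lists is therefore a description only.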

How the data were processed

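Polyadenylated RNA of 6 AL1 samples was sequenced after Smart-seq2 amplification, per the labels' protocols, without molecular identifiers or strand marking, so floors cover counting error only. Intervals of fold changes come from the edgeR fit and include the spread between libraries. Values are raw counts for each gene model of AmexG_v6_DD, in 1 table deposited by the authors. Per the submitters' processing notes, bcl2fastq 2.20.0, STAR 2.7.7a and featureCounts 2.0.1 were used; treatment of multi-mapping reads is not given in the sources used here. The 92 spike-in rows, with 0 counts, were left out. No within-group pair of libraries agreed within sampling noise (chi-square 5.63 to 68.8 per degree of freedom).

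Counts were tested with edgeR 4.0.16 in R 4.3.3 (filterByExpr, TMM, robust quasi-likelihood F-test, two-sided), with p-values adjusted by Benjamini-Hochberg over 17424 models and called below 0.05. Standard errors were derived from the F statistic. CPM are TMM-scaled; a floor of 3 counts equals 0.0643 to 0.105 CPM before TMM scaling. The genes, lists and tests were chosen with earlier results of these data known. Named genes are the 10, every tested oxygen-sensing gene, and of each other list up to 3 with the largest called rise and fall. Further relatives of NDRG1 and VEGFA, with VEGF receptor genes, are named beside them. In every list a symbol with several models, such as ENO1 with 3 and ELOC with 2, was read from its model with the highest mean count. Further models of listed symbols other than NDRG1 are not reported. Alternatives were RLE, upper-quartile or library-size scaling, other count filters, DESeq2 1.42.0, non-robust dispersions, summed models, each library left out and, added after values were seen, removal of the length trend.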

Additional observations from a re-analysis of the deposited data

How the results depend on the processing

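Across 15 other settings for most genes (14 for EGLN3 and VEGFA, which a mean CPM of at least 1 removes), no direction of the 10 genes reversed. The HIF1A call was lost without DMSO replicate 1. With the length trend removed, 2 of the 10 rose, EPAS1 being added, and 7 fell. The number that rose was 1 with every library left out in turn, and the number that fell ran from 6 to 7; it was also 6 with a mean CPM of at least 1, where EGLN3 is not tested. Leave-one-out log2 ratios ran from 0.80 to 1.07 for EPAS1 over HIF1A and from −1.18 to −1.003 for EGLN3 over EGLN1. Leaving out single libraries moved log2 fold changes from −4.76 to −4.39 for STC2, from −2.84 to −1.74 for ANGPTL4, from −1.43 to −1.09 for LEP and from 0.78 to 1.03 for BNIP3. Between 7590 and 9234 models changed when single libraries were left out. The cause of these shifts was not tested. No paired analysis was possible because the labels give no replicate numbers shared between groups. EGLN3 and VEGFA had 8 to 33 counts in a library and STC2 5 or 6 in treated libraries, which limits the precision of their fold changes.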
